A study of Saccharomyces cerevisiae with 27 samples.

Results

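The genes described here were the 81 genes that encode the proteins of the large subunit of the cytosolic ribosome of budding yeast, out of 6746 genes in the count table. A gene was included when its standard symbol was RPL followed by a number and an optional A or B, or when it was one of the acidic stalk genes RPP0, RPP1A, RPP1B, RPP2A and RPP2B. The mitochondrial MRPL genes were not included, and the rule used names only, with no expression value. The 81 genes formed 35 pairs of paralogs, named A and B, and 11 genes with 1 copy (RPL3, RPL5, RPL10, RPL25, RPL28, RPL29, RPL30, RPL32, RPL38, RPL39 and RPP0). All 81 passed the filter on low counts.

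Ribosomal protein genes are among the most strongly transcribed genes of a growing yeast cell, and their products are made in step so that each ribosome receives 1 copy of nearly every protein. Most of them are bound upstream by the general regulatory factor Rap1, which recruits Fhl1 and its coactivator Ifh1, while growth signalling through TOR and protein kinase A controls whether Ifh1 stays bound. A change to a harsher environment is known to lower the mRNAs of the whole family for a while, as one arm of the environmental stress response. Most of the genes were retained in duplicate after an ancient genome duplication, and the copies encode the same or nearly the same protein.

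Poly(A) RNA was sequenced from 27 libraries in 9 groups, with 3 biological replicates in each group. Wild-type (WT), H4-T30A, H4-T30D and H4-S47D cells were grown in log phase in YPD, a rich medium, at 30 °C (no stress). WT, H4-T30A and H4-T30D cells were also taken after 10 min at 39 °C (heat stress), and WT and H4-S47D cells after 15 min in 0.4 M NaCl (osmostress). All strains, WT included, were labelled as BY4741 derivatives that carry his3, leu2, lys2, trp1, ura3 and met15 mutations and can1::MFA1pr-HIS3, that lack the hht1-hhf1 locus, and that have a synthetic histone H3-H4 cassette with URA3 at hht2-hhf2. The cassette was therefore the only source of histones H3 and H4. In H4-T30A and H4-T30D, threonine 30 of H4 was replaced by alanine, which cannot be phosphorylated, or by aspartic acid, whose charge mimics a phosphate, and in H4-S47D serine 47 was replaced by aspartic acid. The comparisons address how these substitutions change transcription without stress and upon stress. The same 3 WT no stress libraries served every comparison with unstressed WT cells. The study's methods name a separate wild type for each residue, whereas the labels name only 1.

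The libraries held between 10212777 and 19503694 counts. TRP1 had 2449 to 5685 counts in the 6 H4-S47D libraries and 1 to 55 in the other 21, although the labels give every strain the same trp1 deletion. A difference in TRP1 therefore accompanied every comparison of H4-S47D with WT below, and its part in those results cannot be told apart from that of the substitution. The osmostress response within H4-S47D compares libraries that all had high TRP1 counts. The values are relative to the other RNAs of a library, and in these bulk samples fewer cells that express a gene and less of its RNA per cell cannot be told apart. No source says that the replicates pair up across groups.

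Because only reads with 1 mapping position were counted, the difference between the copies sets how much of each gene could be seen. The coding sequences of the pairs were 70.3% to 99.4% identical, with a median of 93.2%. Of the possible reads of 50 bases in a member's coding sequence, 19.0% to 100% occurred once in the genome, with 19.0% for RPL1A and RPL1B, 19.1% for RPL35A and RPL35B and 27.3% for RPL4A and RPL4B. Levels of these genes are therefore too low, and reads could be divided between copies with an error that was not measured. The extreme case was RPL41, whose product is a peptide of 25 residues that bridges both ribosomal subunits. RPL41A and RPL41B were 98.7% identical and differed at 1 of 78 positions, C9T counted from the first base of the start codon in RPL41A, so that 9 of 29 possible reads of 50 bases told them apart. Both coding sequences are shown because these genes stood apart in most results below.
RPL41A: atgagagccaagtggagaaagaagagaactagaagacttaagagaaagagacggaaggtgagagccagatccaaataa
RPL41B: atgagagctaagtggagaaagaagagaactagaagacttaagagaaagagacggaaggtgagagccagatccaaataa

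Introns and upstream letters set part of the family apart. An intron interrupted 53 of the 81 genes, and the introns of RPL7A and RPL7B hold the snoRNA genes SNR39 and SNR59. In the 300 bases from 450 to 151 bases before the start codon (RefSeq sequence, build R64), the letters ACCCNNACA on either strand, a core of the Rap1 site, occurred at least once in 33 of 81 member windows (40.7%), in 24.6% of the windows of 57 small-subunit ribosomal protein genes and in 3.7% of the windows of 5992 coding genes. The other motifs searched lay nearer to their share over all genes. GAANNTTC (part of the Hsf1 element) occurred in 17.3% of member windows and 12.0% of all windows, CCCCT (the stress response element) in 18.5% and 23.4% and AAAAATTTT (the RRPE element) in 4.9% and 5.2%.

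The windows of 4 pairs are shown as examples, chosen after their values were seen, of pairs whose balance moved by more than 1 on the log2 scale in at least one of the stresses. Other pairs past this size, such as RPL26 and RPL40, are not shown. Capitals mark the matches to ACCCNNACA or its reverse complement. RPL33A (chrXVI:281672-281971, + strand) holds 1 match and RPL33B (chrXV:779556-779855, - strand) none. RPL27A (chrVIII:126071-126370, + strand) holds none and RPL27B (chrIV:1401320-1401619, + strand) 1.
RPL33A: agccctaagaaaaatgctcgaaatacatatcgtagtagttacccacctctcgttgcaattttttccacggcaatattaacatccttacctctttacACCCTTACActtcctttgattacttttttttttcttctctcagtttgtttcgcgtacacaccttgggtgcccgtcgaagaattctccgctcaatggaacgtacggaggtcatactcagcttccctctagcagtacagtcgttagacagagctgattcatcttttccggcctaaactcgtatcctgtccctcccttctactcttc
RPL33B: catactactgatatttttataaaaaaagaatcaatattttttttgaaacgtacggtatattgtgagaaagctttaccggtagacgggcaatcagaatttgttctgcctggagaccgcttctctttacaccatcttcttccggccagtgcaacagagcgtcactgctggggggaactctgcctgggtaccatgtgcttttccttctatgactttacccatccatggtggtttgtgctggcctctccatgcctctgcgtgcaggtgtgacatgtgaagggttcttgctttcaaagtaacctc
RPL27A: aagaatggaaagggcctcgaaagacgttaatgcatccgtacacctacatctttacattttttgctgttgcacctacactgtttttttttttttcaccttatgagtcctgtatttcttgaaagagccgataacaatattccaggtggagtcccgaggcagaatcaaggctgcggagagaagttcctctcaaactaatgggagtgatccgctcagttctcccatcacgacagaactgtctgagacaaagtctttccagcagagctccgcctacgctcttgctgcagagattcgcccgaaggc
RPL27B: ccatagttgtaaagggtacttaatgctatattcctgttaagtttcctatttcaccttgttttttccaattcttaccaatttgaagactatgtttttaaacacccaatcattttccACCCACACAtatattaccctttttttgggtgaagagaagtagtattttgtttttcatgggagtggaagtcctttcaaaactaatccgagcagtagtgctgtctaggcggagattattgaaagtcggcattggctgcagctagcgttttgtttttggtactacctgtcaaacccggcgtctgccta
RPL22A (chrXII:262744-263043, + strand) holds none and RPL22B (chrVI:65083-65382, - strand) 1. RPL13A (chrIV:307974-308273, + strand) and RPL13B (chrXIII:551358-551657, - strand) hold 2 each.
RPL22A: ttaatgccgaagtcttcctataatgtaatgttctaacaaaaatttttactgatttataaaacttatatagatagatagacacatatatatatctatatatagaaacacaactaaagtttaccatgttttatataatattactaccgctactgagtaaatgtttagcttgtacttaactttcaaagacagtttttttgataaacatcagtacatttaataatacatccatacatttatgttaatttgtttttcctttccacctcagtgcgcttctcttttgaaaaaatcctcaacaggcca
RPL22B: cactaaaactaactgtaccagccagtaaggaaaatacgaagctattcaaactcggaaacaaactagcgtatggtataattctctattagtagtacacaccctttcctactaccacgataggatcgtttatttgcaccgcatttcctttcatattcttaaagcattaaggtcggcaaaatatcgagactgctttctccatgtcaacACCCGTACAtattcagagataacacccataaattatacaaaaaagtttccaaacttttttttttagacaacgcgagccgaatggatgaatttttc
RPL13A: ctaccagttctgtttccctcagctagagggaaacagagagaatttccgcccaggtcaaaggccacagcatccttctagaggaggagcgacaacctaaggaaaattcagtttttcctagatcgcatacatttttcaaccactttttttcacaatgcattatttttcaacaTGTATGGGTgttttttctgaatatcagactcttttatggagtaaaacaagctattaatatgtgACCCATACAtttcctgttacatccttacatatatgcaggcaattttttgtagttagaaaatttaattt
RPL13B: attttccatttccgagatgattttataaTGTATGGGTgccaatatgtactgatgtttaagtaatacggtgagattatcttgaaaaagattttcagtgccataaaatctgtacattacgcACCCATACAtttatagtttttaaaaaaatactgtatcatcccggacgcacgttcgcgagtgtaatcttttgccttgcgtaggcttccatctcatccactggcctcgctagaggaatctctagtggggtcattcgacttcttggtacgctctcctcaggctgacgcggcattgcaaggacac
Of the copies that fell more in WT osmostress, RPL33B has no match, RPL27B and RPL22B have 1, and RPL13A has 2, as has RPL13B. Over all members the fall was alike with and without the letters. The median log2 change in WT osmostress was -1.49 over the 33 genes with a match and -1.39 over the 48 without, and in WT heat stress -2.47 and -2.47.

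Without stress the 81 genes accounted for a large part of the mRNA. They took 13.2% to 14.4% of all counts in the 3 WT no stress libraries (13.8% ± 0.615, SD, n = 3). Per 1000 bases of coding sequence, members had 319 to 9255 CPM (counts per 1e6 counts of the library, scaled between libraries by TMM) with a median of 3226, beside a median of 28.4 on the same scale over 5807 coding genes tested. Of the 100 coding genes with the highest level on this scale, 41 were members.

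The highest levels per length in WT no stress were those of RPL30 (9255 ± 488 CPM per 1000 bases, SD, n = 3), a protein that represses splicing of its own transcript, RPL2B (8528 ± 1545), RPP1B (8009 ± 1066), RPP0 (7989 ± 1032) and RPL10 (7800 ± 1094). The spread over replicates of RPL2B, RPP1B, RPP0 and RPL10 was larger than the steps between these 5 genes, so their order was not resolved, the first place of RPL30 included. This order also rests on dividing by the whole coding length. Divided by the positions at which a read of 50 bases is unique, RPL1B (30870.0 CPM per 1000 such positions), RPL1A (29300.0), RPL4A (25330.0), RPL41B (25000.0) and RPL4B (19260.0) came first and RPL30 was at rank 9. RPP0 anchors the acidic stalk, which recruits translation factors, and RPP1B is one of its acidic proteins. RPL10, also single copy, is one of the last proteins to join the subunit. The lowest were RPL22B (319 ± 11.7) and RPL15B (326 ± 26.1), each the lesser copy of its pair.

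**Figure D1:**
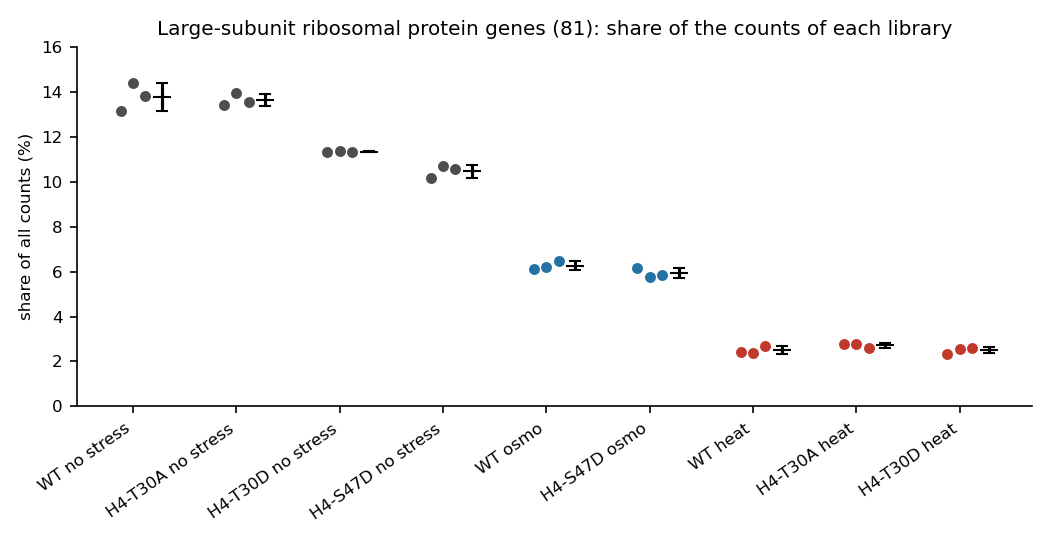
Share of all counts of a library (%, y axis) that fell on the 81 large-subunit ribosomal protein genes, by group (x axis). Each point is 1 of 3 libraries, and the dash with its bar is the mean with the SD. The 6 stressed WT libraries lie between 2.40% and 6.47% and the 3 unstressed ones between 13.2% and 14.4%.

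In wild type, osmostress lowered most of the family by more than 2-fold and heat stress lowered nearly all of it further. The share of the counts was 6.11% to 6.47% after osmostress (6.26% ± 0.19, n = 3) and 2.40% to 2.70% after heat stress (2.51% ± 0.165, n = 3). The groups did not overlap. The two-sided exact permutation p was 0.1 for each of these comparisons with WT no stress, which is the smallest that 3 against 3 libraries can give, and 0.15 after Benjamini-Hochberg adjustment over 12 comparisons of this share.

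In the gene-level test (edgeR, glmTreat against a log2 fold change of 1, adjusted p under 0.05 over 6209 genes), 65 of the 81 genes fell upon osmostress and none rose, beside 12.5% of all genes tested that fell and 12.8% that rose. The median log2 change of the members was -1.48, with a range of -3.12 to 0.05, and that of all genes 0.08. Of the small-subunit genes 45 of 57 fell (median -1.40), while 0 of 34 mitochondrial large-subunit genes passed in either direction (median -0.22, 0 at an unadjusted p under 0.05). Of the 53 genes with an intron 47 fell, with a median of -1.51, and of the 28 without one 18, with a median of -1.35. Of the 11 single-copy genes 4 fell, with a median of -1.11.

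RPL33B fell most upon osmostress. Its levels were 694.3, 692.5 and 693.5 CPM in the WT no stress libraries and 71.2, 90.9 and 78.0 CPM in the WT osmostress libraries. The groups were far apart, and the log2 change was -3.12 ± 0.09 (SE, edgeR adjusted p = 9.99e-21). RPL31B followed with -2.75 ± 0.11 (adjusted p = 7.67e-16) and RPL22B with -2.68 ± 0.12 (adjusted p = 6.6e-15). All of them are B copies of proteins on the surface of the subunit, RPL31 near the exit of the peptide tunnel.

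RPL3 carried the largest absolute loss. This protein, which reaches into the peptidyl transferase centre, had 7468, 8182 and 9801 CPM without stress and 1733, 1763 and 2135 CPM upon osmostress. Its log2 change was -2.18 ± 0.12 (adjusted p = 1.11e-11), more than that of the other single-copy genes, which lay between -1.49 for RPL28 and -0.84 for RPL10. RPL10 had 4548, 5053 and 5983 CPM without stress and 2700.0, 2761 and 3253 CPM upon osmostress. These groups did not overlap, but the estimate of -0.84 ± 0.10 did not exceed a log2 change of 1 (adjusted p = 1.0).

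The 5 stalk genes behaved alike. Their estimates were -1.13 to -0.88, and none was past the threshold of a log2 change of 1 in this test (1 of 5 at an unadjusted p under 0.05), although RPP0, for example, had 6414, 7816 and 8275 CPM without stress and 3360.0, 3388 and 3763 CPM upon osmostress. Their median was -1.10, beside -1.50 over the other 76 members.

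RPL41A and RPL41B did not fall measurably upon osmostress. RPL41A had 43.0, 130.0 and 95.8 CPM in the WT no stress libraries and 101, 76.7 and 100.2 CPM in the osmostress libraries. RPL41B had 117, 309.5 and 249 CPM and then 219, 193 and 244.5 CPM. Both genes were low in the same unstressed library, and the groups overlapped. The estimates were 0.05 ± 0.28 for RPL41A and -0.04 ± 0.25 for RPL41B (adjusted p = 1.0 for both). Their sign turned with the scaling, to -0.02 for RPL41A with DESeq2's size factors and to 0.25 for RPL41B with library totals.

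Upon heat stress 79 of the 81 genes fell and none rose, beside 15.4% of all genes that fell and 15.8% that rose. The median log2 change was -2.47, with a range of -4.40 to -0.83, beside 0.08 over all genes. All 57 small-subunit genes fell (median -2.38), and none of the 34 mitochondrial genes passed (median 0.07, 0 at an unadjusted p under 0.05). All 11 single-copy genes and all 5 stalk genes fell.

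RPL22B fell most upon heat stress. It had 120.0, 120.4 and 113 CPM without stress and 3.82, 4.48 and 8.43 CPM after heat stress, which is a log2 change of -4.40 ± 0.14 (adjusted p = 4.78e-20). The heat-stressed values rest on 43, 56 and 100 counts, the highest in replicate 3. With 1 library left out the estimate was between -4.82 and -4.20. RPL27B fell from 638, 719 and 695 CPM to 38.6, 41.2 and 50.7 CPM (-3.97 ± 0.10, adjusted p = 7.4e-23), and RPL13A from 875, 1034 and 979 CPM to 68.8, 68.3 and 82.4 CPM (-3.72 ± 0.10, adjusted p = 1.94e-22). In all of these genes the groups were apart by far more than the spread of their replicates.

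At the other end stood the short RPL41 genes. RPL41A had 47.1, 43.8 and 59.9 CPM and RPL41B 109, 101 and 122 CPM after heat stress, within or just below the range of the unstressed libraries. Neither passed (-0.83 ± 0.29, adjusted p = 1.0, and -1.02 ± 0.26, adjusted p = 0.585). Next came RPL15B (-1.40 ± 0.08, adjusted p = 8e-06) and RPP2B (-1.43 ± 0.12, adjusted p = 0.000327). The stalk genes had a median of -1.65 beside -2.53 over the other 76 members. RPL10, with one of the smallest changes upon osmostress (-0.84), had -2.43 upon heat stress, near the median. Both responses were measured against the same WT no stress libraries.

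**Figure D2:**
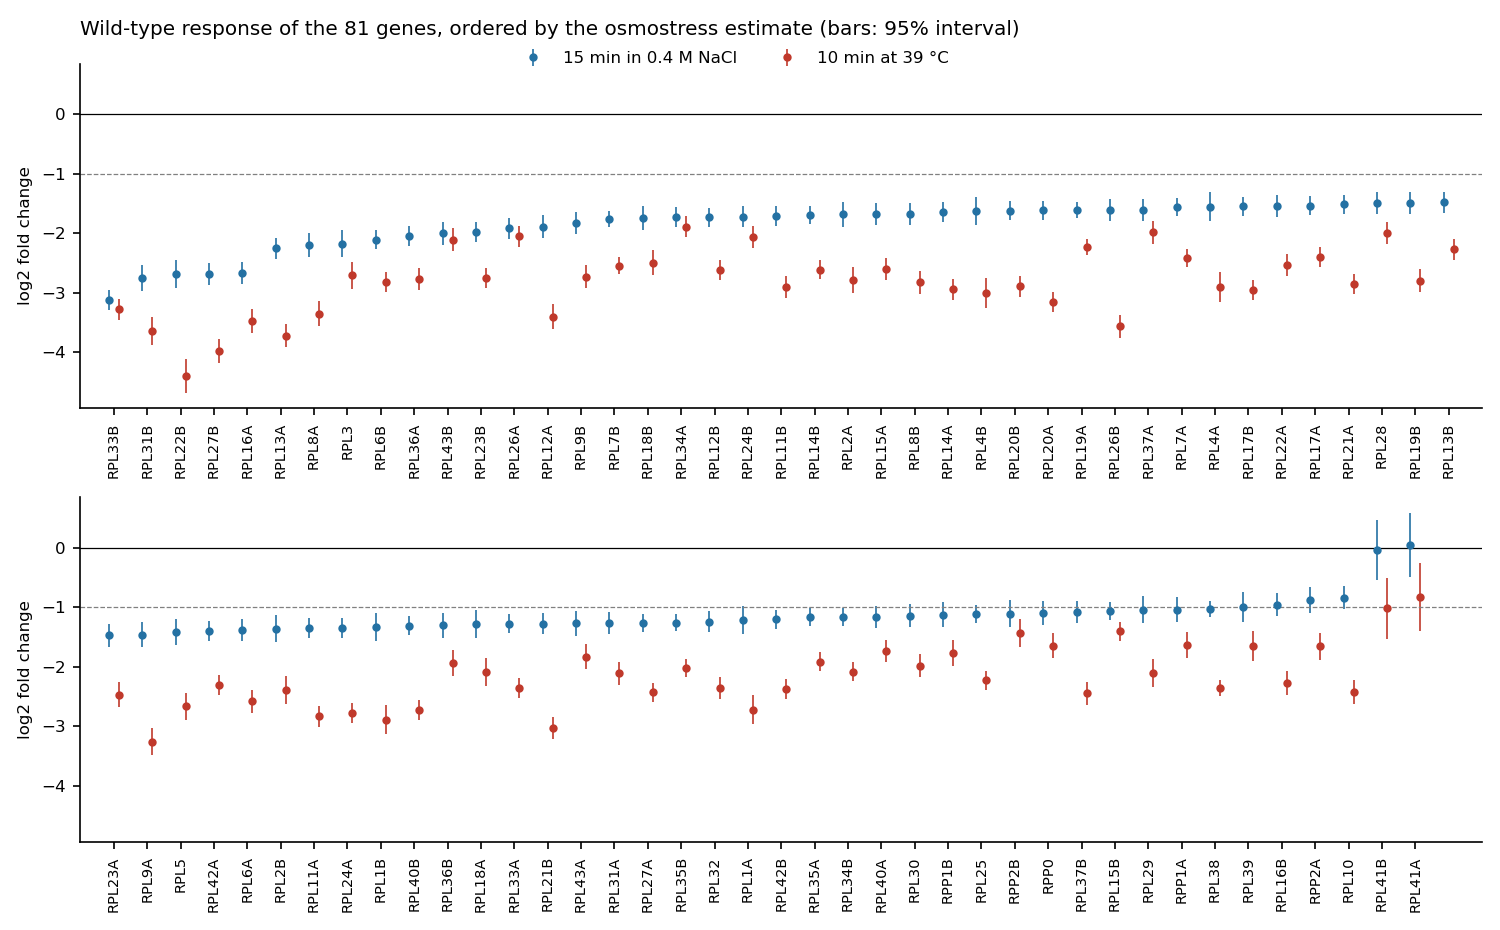
Log2 fold change (y axis) of the 81 genes (x axis, ordered by the osmostress estimate over 2 panels) in WT cells upon osmostress (blue) and heat stress (red), each against WT no stress. Bars are 95% intervals and the dashed line marks the tested threshold of -1. RPL33B is leftmost at -3.12 upon osmostress, and RPL41B and RPL41A are rightmost.

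A direct test of heat stress against osmostress, which did not use the unstressed libraries, found 77 of 81 genes lower after heat stress and none higher (edgeR quasi-likelihood test against 0), beside 34.0% of all genes lower and 29.0% higher. The median difference was -0.93, with a range of -1.96 to -0.11. RPL26B differed most, with 586, 594 and 645.5 CPM after osmostress and 146, 147 and 178 CPM after heat stress (-1.96 ± 0.10, adjusted p = 4.94e-17), followed by RPL9A (-1.80 ± 0.11) and RPL21B (-1.76 ± 0.09). The genes that did not pass were RPL26A, RPL33B, RPL34A and RPL43B, with estimates of -0.16 to -0.11 and adjusted p of 0.111 to 0.31. All 4 belong to pairs whose other copy did pass. The stresses also differed in kind, strength and duration, and their time courses were not measured.

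The paralogs answered unequally to both stresses, as did most gene pairs of the table that are named A and B. The ratio of the counts of copy A to copy B was compared within each library, which makes it independent of the scaling between libraries, and was tested with limma over all 61 gene pairs of the table whose symbols differ only in A or B. Upon osmostress the ratio changed in 29 of 35 member pairs, 16 toward A and 13 toward B, beside 83.6% of the 61 pairs. Upon heat stress it changed in 33, 21 toward A and 12 toward B, beside 86.9%. The 61 pairs include the 35 member pairs, and no difference between members and other pairs was tested. The change exceeded a log2 ratio of 1 in 5 member pairs upon osmostress and in 8 upon heat stress, and the median absolute change was 0.35 and 0.41. These values were taken for member pairs only, with no share over all 61 pairs.

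RPL33 changed most upon osmostress. Copy A made up 71.3%, 74.6% and 74.95% of the pair's counts in the WT no stress libraries and 91.2%, 89.8% and 91.7% upon osmostress, a change of the log2 ratio of 1.85 ± 0.09 (SE, limma adjusted p = 1.2e-14). After heat stress the share was 84.8%, 85.1% and 82.6%, above the unstressed and below the osmostressed libraries. RPL16 went the other way. Its A copy made up 27.8%, 25.8% and 24.8% without stress, 9.89%, 10.0% and 9.37% upon osmostress (-1.71 ± 0.07, adjusted p = 1.62e-15) and 12.7%, 12.2% and 14.9% upon heat stress. RPL31 (1.48 ± 0.10 upon osmostress, 1.54 ± 0.10 upon heat stress) and RPL27 (1.41 ± 0.08 and 1.55 ± 0.08) moved toward A in either stress.

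Upon heat stress RPL22 had the largest change (1.95 ± 0.22, adjusted p = 2.91e-08), which rests on the low counts of RPL22B given above. With 1 library left out it was between 1.65 and 2.30. RPL22A stayed the main copy, at 90.7% to 92.8% of the pair without stress and 96.5% to 98.5% after heat stress. RPL26 moved toward B in one stress and toward A in the other. Copy A made up 31.4%, 32.1% and 31.9% without stress, 26.5%, 27.3% and 28.2% upon osmostress (-0.31 ± 0.09, adjusted p = 0.00239) and 61.3%, 58.4% and 51.6% upon heat stress (1.52 ± 0.09, adjusted p = 3.15e-13), so the larger copy was B in the 6 unstressed and osmostressed WT libraries and A in the 3 heat-stressed ones. RPL13 moved toward B in both (-0.77 ± 0.05 and -1.45 ± 0.05), and RPL15, RPL16 and RPL40 also passed a log2 change of 1 upon heat stress.

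**Figure D3:**
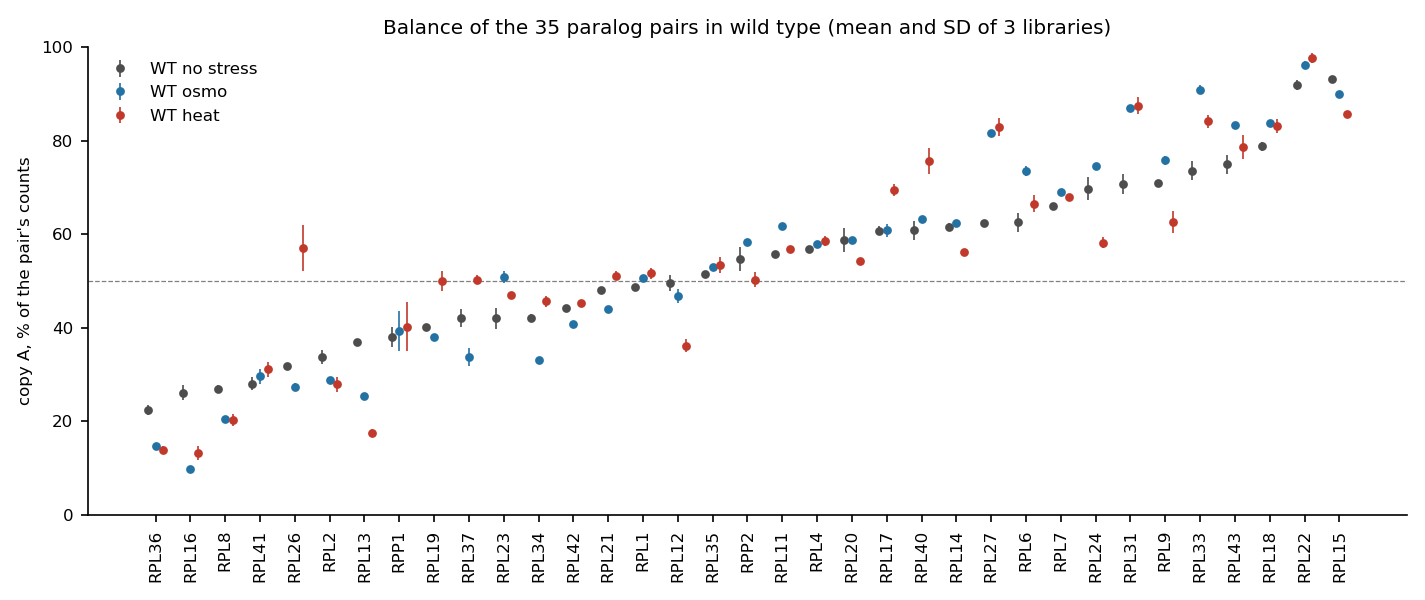
Share of copy A in the counts of its pair (%, y axis) for the 35 pairs (x axis, ordered by WT no stress) in WT cells without stress (grey), upon osmostress (blue) and upon heat stress (red). Points are means and bars the SD of 3 libraries. RPL33 moves up and RPL16 down upon osmostress, and RPL26 crosses 50% upon heat stress only.

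The unequal answers mostly kept the larger copy in place. In WT no stress copy A was the larger in 19 pairs and copy B in 16, the median share of the larger copy was 62.4%, and in 4 pairs it was over 75%. By the mean share of a group, the larger copy changed in 2 pairs upon osmostress (RPL1 and RPL23) and in 4 upon heat stress (RPL1, RPL21, RPL26 and RPL37). In all but RPL26 the stressed copies were nearly equal. In WT osmostress replicate 2, RPL23A had 7549 counts and RPL23B 7603. In WT heat replicate 1, RPL21A had 2224 and RPL21B 2219, and RPL37A had 2867 and RPL37B 2928. Taking the lesser copy from the H4-T30A no stress libraries, which neither WT response uses, the ratio moved against the lesser copy in 25 of the 29 pairs that changed upon osmostress and in 19 of the 33 that changed upon heat stress. This was counted for member pairs only, so it cannot show whether other pairs differ. Summed over both copies, the responses of the pairs lay closer together than those of their genes. The log2 change of the sum was between -1.80 and -0.01 upon osmostress, with an SD over pairs of 0.317 beside 0.517 over the 70 genes, and between -3.09 and -0.97 upon heat stress, with an SD of 0.467 beside 0.653. A sum varies less than its parts by construction.

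**Figure D4:**
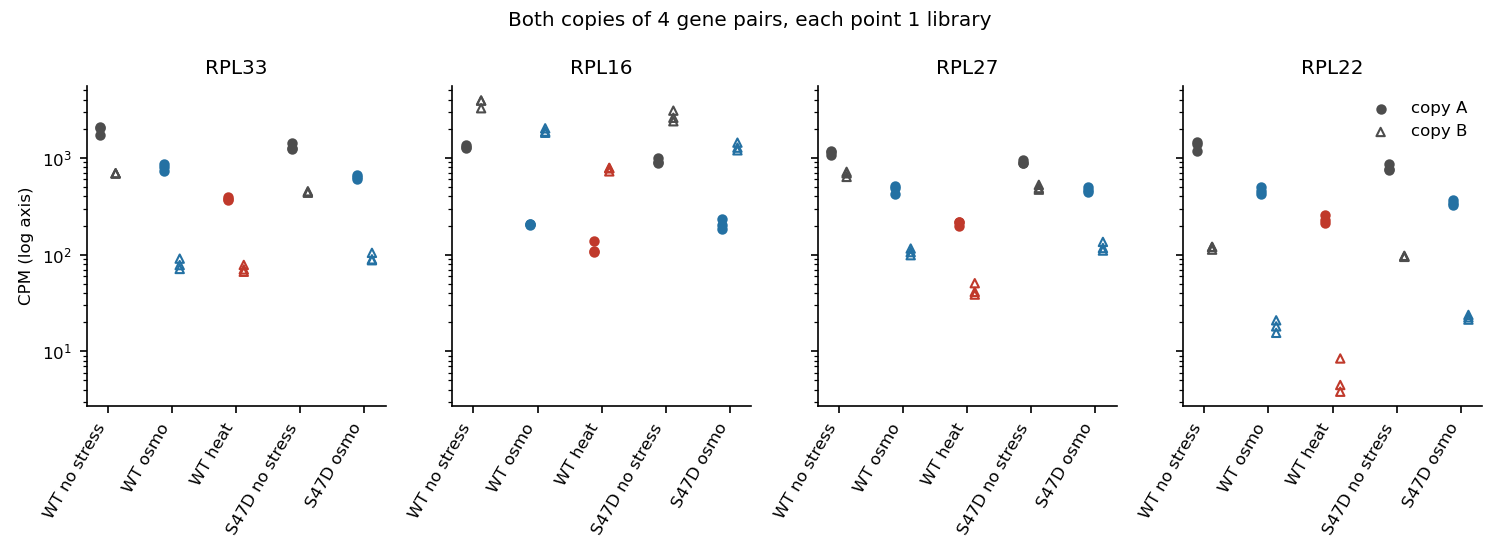
Level (CPM, log axis) of copy A (filled circles) and copy B (open triangles) of RPL33, RPL16, RPL27 and RPL22 in 5 groups (x axis). Each point is 1 library. RPL33B falls to 71.2 to 90.9 CPM upon WT osmostress, and RPL22B reaches 3.82 to 8.43 CPM upon WT heat stress.

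Genes that act on the family were taken from lists of transcription regulators, of dedicated chaperones of new large-subunit proteins, and of assembly factors of the large subunit. IFH1, the coactivator named above, fell in both stresses (-1.41, adjusted p = 0.0124, and -1.31, adjusted p = 0.042), and CRF1, which displaces Ifh1 from Fhl1 in some strains, rose (2.71 and 2.11). TOD6, a repressor of ribosome biogenesis genes, fell (-4.38 and -4.33), and STB3, a repressor that binds RRPE elements, rose upon heat stress (1.25, adjusted p = 0.00179) with an estimate of 0.89 upon osmostress (adjusted p = 1.0). RAP1 (-0.62 and -0.77), FHL1 (-0.57 and -0.47), SFP1 (0.38 and 0.15), HMO1 (-1.03 and 0.21) and DOT6 (0.02 and 1.14) did not pass in either stress. These calls ask for a log2 change past 1, so a smaller change is not called even where its error is small. RAP1, for example, had an SE of 0.07 in each stress, and HMO1 an SE of 0.10 upon osmostress.

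All 5 chaperone genes fell in both stresses. SYO1, which imports RPL5 and RPL11 together, fell most (-5.58 upon osmostress and -5.75 upon heat stress), followed by RRB1, the chaperone of RPL3 (-4.05 and -4.20). The size of the fall of SYO1 rests on low levels, 0.86 to 1.71 CPM in WT osmostress and 0.71 to 2.11 CPM in WT heat stress. SQT1, the chaperone of RPL10 (-2.73 and -1.79), ACL4, that of RPL4 (-2.35 and -3.33), and BCP1, that of RPL23 (-1.72 and -3.83), also fell. Of 24 assembly factor genes all fell upon osmostress (median -3.77) and 23 upon heat stress (median -4.57), beside 12.5% and 15.4% of all genes tested. The mRNAs of the factors had thus a lower median than those of the 81 proteins they act on (-1.48 and -2.47), a difference that was not tested.

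In the mutants without stress, the family was lower in H4-S47D and H4-T30D and not detectably changed in H4-T30A. Its share of the counts was 10.15% to 10.7% in H4-S47D (10.5% ± 0.285, n = 3), 11.3% to 11.4% in H4-T30D (11.3% ± 0.0361, n = 3) and 13.4% to 13.95% in H4-T30A (13.6% ± 0.27, n = 3). Neither H4-S47D nor H4-T30D overlapped with WT (13.2% to 14.4%), while H4-T30A lay within its range (two-sided exact permutation p = 0.1, 0.1 and 0.8, where 0.1 is the smallest possible). The mutants shared the 3 WT libraries, so the differences below are not independent of each other.

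In H4-S47D 79 of the 81 genes were lower than in WT and none was higher (edgeR quasi-likelihood test against 0), beside 25.3% of all genes lower and 26.6% higher. The median log2 difference was -0.56, with a range of -0.90 to -0.23, beside 0.00 over all genes. RPL43A had 1530.0, 2142 and 1923 CPM in WT and 909, 1144 and 954 CPM in H4-S47D (-0.90 ± 0.10, adjusted p = 2.98e-08). RPL3 was at 4324, 5562 and 4073 CPM, below all 3 WT libraries (-0.87 ± 0.11, adjusted p = 1.64e-07), and RPL39, which lines the peptide tunnel, at 228, 295 and 312 CPM beside 425.5, 539.5 and 544.5 CPM (-0.85 ± 0.12, adjusted p = 1.45e-06). The smallest differences were those of RPL41A (-0.23 ± 0.28, adjusted p = 0.513), RPL9B (-0.27 ± 0.09, adjusted p = 0.0146) and RPL41B (-0.27 ± 0.26, adjusted p = 0.384). All 11 single-copy genes and all 5 stalk genes were lower.

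In H4-T30D 78 genes were lower and none was higher, beside 15.3% of all genes lower and 16.3% higher. The median was -0.49, with a range of -0.79 to -0.06, beside 0.01 over all genes. RPL43B had 543, 629 and 682 CPM in WT and 350, 360.2 and 360.3 CPM in H4-T30D (-0.79 ± 0.10, adjusted p = 2.62e-07). RPL39 (-0.73 ± 0.12) and RPL38 (-0.72 ± 0.07, adjusted p = 2.29e-09) followed. RPL38, small and single copy, had 773, 879 and 821 CPM in WT and 484.5, 517 and 503 CPM in H4-T30D, with no overlap. The smallest differences were those of RPL41A (-0.06 ± 0.28), RPL22B (-0.17 ± 0.11, adjusted p = 0.219) and RPL16B (-0.31 ± 0.10, adjusted p = 0.0153).

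These differences depend on the scale. Scaled by library totals in place of TMM, the median of all genes rose by 0.18 in H4-S47D and by 0.20 in H4-T30D. On that scale 70 and 63 members were lower, with medians of -0.37 and -0.29. The shares over all genes given above are those of the TMM scale. In H4-T30A none of the 81 genes passed in either direction, beside 0.773% of all genes lower and 0.612% higher. The median was -0.09, which turned to 0.03 with library totals, 9 genes had an unadjusted p under 0.05, and DESeq2 called 2 lower. The lowest estimates were those of RPP1A (-0.34 ± 0.10, adjusted p = 0.1), RPP1B (-0.32 ± 0.11) and RPL4A (-0.24 ± 0.12), and the highest those of RPL24B (0.08 ± 0.09), RPL31B (0.04 ± 0.10) and RPL34A (0.03 ± 0.08). Without WT no stress replicate 1, 3 genes were lower.

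The lists around the family moved less evenly in the unstressed mutants. They were tested here against 0, and not against the log2 change of 1 used for the WT responses, so the calls are not comparable. In H4-S47D all 5 chaperone genes (median -0.64) and 22 of 24 assembly factor genes (median -0.47) were lower, and of the regulators RAP1 (-0.46), HMO1 (-0.54) and TOD6 (-0.52) were lower and CRF1 higher (0.66). In H4-T30D 1 chaperone gene (ACL4, -0.37) and 7 of 24 assembly factor genes were lower, HMO1 was lower (-0.38), and CRF1 (0.92) and STB3 (0.22) were higher. Of the small-subunit genes 54 of 57 were lower in H4-S47D and 55 in H4-T30D, and of the mitochondrial genes 4 and 14 of 34. Over all genes tested, 25.3% were lower in H4-S47D and 15.3% in H4-T30D.

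Upon stress each mutant lowered the family as well. In H4-S47D 42 genes fell upon osmostress (glmTreat against a log2 change of 1), beside 9.95% of all genes that fell and 8.34% that rose, and the median was -1.21. Against a change of 0, 79 fell, a count to which the shares just given do not apply. With library totals the median of all genes shifted by 0.35 and 14 members fell, again without a share over all genes for that scale. RPL33B (-2.25 ± 0.09), RPL16A (-2.17 ± 0.09) and RPL22B (-2.09 ± 0.12) fell most, and RPL41B (-0.08 ± 0.26), RPL41A (-0.19 ± 0.28) and RPL15B (-0.33 ± 0.08) had the highest estimates, none of them past the threshold.

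Upon heat stress 79 genes fell in H4-T30A, beside 15.0% of all genes that fell and 14.9% that rose (median -2.37), and 78 in H4-T30D, beside 14.0% and 12.8% (median -2.10). RPL22B was lowest in both (-4.77 ± 0.15 and -3.73 ± 0.13), with RPL27B (-3.98 and -3.44) and RPL31B (-3.76 and -3.52) next. RPL41A (-0.27 and -0.64) and RPL41B (-0.56 and -0.56) did not pass in either, and RPL15B did not in H4-T30D (-1.01 ± 0.08, adjusted p = 0.636). RPP2B had the highest estimate of the genes that fell in H4-T30A (-1.31 ± 0.12, adjusted p = 0.00579).

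The fall upon stress was smaller in H4-S47D and H4-T30D than in WT for part of the family. In the test of the interaction, the mutant response minus the WT response, 34 genes were higher and none lower in H4-S47D, beside 12.9% of all genes higher and 20.7% lower. The median was 0.29 beside -0.06 over all genes. The count was 22 without H4-S47D no stress replicate 1 and 55 with library totals, while the shares over all genes are those of the main fit. RPL33B had 452.9, 444.2 and 437 CPM in unstressed H4-S47D cells and 104, 87.6 and 89.5 CPM upon osmostress, so that it started below WT and ended within or just above the WT osmostress range of 71.2 to 90.9 CPM (0.87 ± 0.12, adjusted p = 8.46e-07). RPL3 ended at 1906, 1822 and 1773 CPM, within the WT osmostress range (0.83 ± 0.16, adjusted p = 0.000134). RPL15A ended at 1007, 994 and 937 CPM beside 840, 815 and 915 CPM in WT (0.83 ± 0.13, adjusted p = 6.57e-06). The lowest estimates were those of RPL41A (-0.24 ± 0.39), RPL16B (-0.09 ± 0.14) and RPL41B (-0.04 ± 0.36), none of which passed.

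In H4-T30D 48 genes had a higher interaction and none a lower one, beside 4.4% of all genes higher and 9.62% lower. The median was 0.42 beside -0.06 over all genes. The count was 30 without H4-T30D heat replicate 3 and 66 with DESeq2, for which no shares over all genes are given. RPL3 had 6168, 5970.0 and 5595 CPM in unstressed H4-T30D cells and 1461, 1475 and 1787 CPM after heat stress, beside 1305, 1277 and 1316 CPM in heat-stressed WT (0.80 ± 0.16, adjusted p = 0.00085). RPL12A, the base of the stalk together with RPP0, ended at 155, 163 and 200.1 CPM, overlapping with 172, 158 and 183 CPM in WT (0.71 ± 0.14, adjusted p = 0.000914). RPL22B ended at 8.93, 6.31 and 8.44 CPM beside 3.82, 4.48 and 8.43 CPM (0.67 ± 0.21, adjusted p = 0.0299). The WT value of 8.43 CPM came from heat replicate 3, and with 1 library left out the estimate was between 0.47 and 1.1. RPL31B (0.11 ± 0.16), RPL13B (0.14 ± 0.12) and RPL30 (0.15 ± 0.13) had the lowest estimates. None of the 5 stalk genes passed in either mutant (0 at an unadjusted p under 0.05 in H4-S47D and 2 in H4-T30D).

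In H4-T30A no gene passed, beside 0.177% of all genes higher and 0.306% lower. The median was 0.13, no member had an unadjusted p under 0.05, and DESeq2 called 0. RPL41A (0.56 ± 0.40), RPL41B (0.46 ± 0.37) and RPL1B (0.31 ± 0.16) had the highest estimates, and RPL22B (-0.37 ± 0.23), RPL24B (-0.20 ± 0.13) and RPL31B (-0.12 ± 0.16) the lowest.

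**Figure D5:**
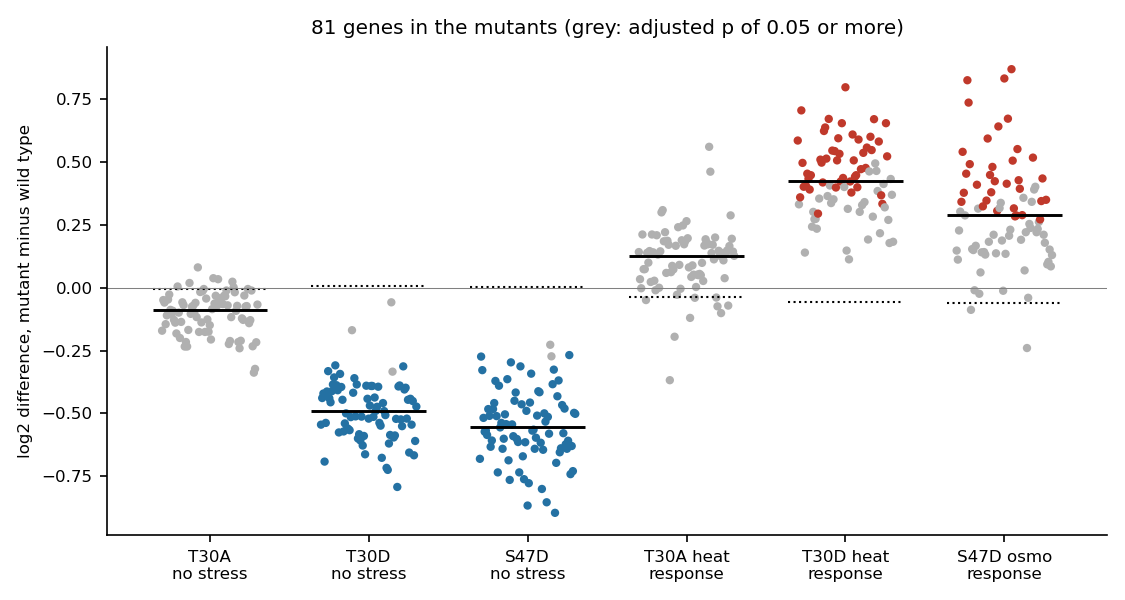
Log2 difference of mutant minus WT (y axis) for the 81 genes without stress and, as a difference of responses, upon stress (x axis). Each point is 1 gene, coloured where the adjusted p was under 0.05 (blue lower, red higher). Solid lines are the medians of the 81 genes and dotted lines those of all genes tested. H4-S47D and H4-T30D lie below 0 without stress and mostly above 0 in the response, and no point of H4-T30A is coloured.

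In H4-S47D and H4-T30D the levels reached upon stress lay closer to WT than the unstressed levels did. The share of the counts was 5.76% to 6.17% in osmostressed H4-S47D (5.92% ± 0.219, n = 3) beside 6.11% to 6.47% in WT, and 2.35% to 2.59% in heat-stressed H4-T30D (2.50% ± 0.133) and 2.59% to 2.78% in H4-T30A (2.71% ± 0.107) beside 2.40% to 2.70% in WT. All of these groups overlapped with WT (two-sided exact permutation p = 0.2, 1.0 and 0.2). Gene by gene, the level upon stress was below WT in 71 of 81 genes in H4-S47D, with a median log2 difference of -0.22 and a range of -0.75 to 0.33, and in 59 of 81 in H4-T30D, with a median of -0.06 and a range of -0.38 to 0.50. For all genes these medians were -0.04 and -0.05. They follow from the fitted values and were not tested.

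Around the family, the interaction in H4-S47D was higher for 4 of 5 chaperone genes (SYO1 1.88, RRB1 1.07, ACL4 0.66 and SQT1 0.58, with 0.35 for BCP1, adjusted p = 0.0628) and for 20 of 24 assembly factor genes (median 0.88). The estimate of SYO1 (SE 0.35) rests on low levels, 0.86 to 1.71 CPM in WT osmostress and 1.9 to 5.0 CPM in osmostressed H4-S47D. TOD6 was also higher (1.31) and CRF1 lower (-0.65). In H4-T30D 1 chaperone gene (ACL4, 0.48) and 1 of 24 assembly factor genes were higher, and CRF1 (-1.12), DOT6 (-0.44) and STB3 (-0.36) were lower. IFH1 did not pass in either mutant without stress or in the interaction (adjusted p of 0.0597 to 0.923). Small-subunit genes with a higher interaction numbered 13 of 57 in H4-S47D and 37 in H4-T30D. Over all genes tested, the interaction was higher for 12.9% in H4-S47D and for 4.4% in H4-T30D.

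The balance of the paralogs differed little between the strains. Without stress it differed from WT in 5 of 35 pairs in H4-S47D, beside 26.2% of the 61 pairs tested, in 3 in H4-T30D, beside 8.2%, and in 0 in H4-T30A, beside 1.64% (limma, 5 pairs at an unadjusted p under 0.05). RPL18 (-0.34 ± 0.05, adjusted p = 3.89e-05), RPL9 (-0.34 ± 0.07) and RPL21 (0.33 ± 0.04, adjusted p = 1.78e-06) differed most in H4-S47D among those that passed, with RPL2 and RPL7 the others. RPL22 had a larger estimate with a wide error (-0.47 ± 0.22, adjusted p = 0.104). In H4-T30D RPL41 (0.29 ± 0.08, adjusted p = 0.0286), RPL43 (0.28 ± 0.08) and RPL18 (-0.22 ± 0.05) passed and RPL22 (-0.34 ± 0.22) and RPL6 (-0.23 ± 0.08) did not. In H4-T30A the largest estimates were those of RPL24 (-0.21 ± 0.06, adjusted p = 0.0661), RPP2 (-0.17 ± 0.07), RPL43 (0.15 ± 0.08) and RPL8 (0.14 ± 0.05). These small counts moved with single libraries. The 5 pairs of H4-S47D became 3 without its no stress replicate 1. The 3 of H4-T30D became 6 without WT no stress replicate 2, 0 without WT no stress replicate 3 or H4-T30D no stress replicate 2, and 1 without H4-T30D no stress replicate 3. The 0 of H4-T30A became 1 without WT no stress replicate 2.

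Upon osmostress the balance of 8 of 35 pairs moved differently in H4-S47D than in WT, a lower share than the 29.5% of all 61 pairs. These were RPL33, RPL16, RPL27, RPL23, RPL14, RPL34, RPL8 and RPL2. Copy A of RPL33 reached 86.4%, 87.3% and 87.8% of the pair in osmostressed H4-S47D cells, below the 89.8% to 91.7% of WT (-0.64 ± 0.12, adjusted p = 0.000327), and copy A of RPL16 was 14.0%, 13.4% and 13.7% beside 9.37% to 10.0% in WT (0.57 ± 0.10, adjusted p = 0.000196). RPL27 also had a smaller change than in WT (-0.33 ± 0.11, adjusted p = 0.0232), and RPL26 did not pass (0.28 ± 0.12, adjusted p = 0.0733). Without H4-S47D no stress replicate 1 the count was 4.

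In the heat response 1 pair differed in H4-T30D, the only call among the 61 pairs (1.64%), and none in H4-T30A, beside 0.0% (limma, 5 member pairs at an unadjusted p under 0.05). The pair was RPL13 (0.26 ± 0.07, adjusted p = 0.043), while RPL43 (-0.41 ± 0.12, adjusted p = 0.062), RPL22 (-0.38 ± 0.31), RPL6 (0.35 ± 0.11) and RPL41 (-0.30 ± 0.12) had larger estimates that did not pass. In H4-T30A the largest were RPL22 (0.45 ± 0.31), RPL24 (0.28 ± 0.09, adjusted p = 0.0534), RPL26 (-0.27 ± 0.12) and RPL9 (0.23 ± 0.10). The count of H4-T30D was between 0 and 4 when 1 library was left out, with 4 without WT heat replicate 3, 3 without WT heat replicate 1 or H4-T30D heat replicate 2, 2 without WT no stress replicate 1 and 0 without WT no stress replicate 3, WT heat replicate 2, H4-T30D heat replicate 1 or 3, or any H4-T30D no stress library. That of H4-T30A became 1 without WT no stress replicate 2 or WT heat replicate 3.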

How the data were processed

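The deposited table holds counts of reads per gene for 27 libraries. Per the labels and the study's methods, the authors prepared poly(A) libraries with a stranded kit, sequenced single-end reads of 50 bases, mapped them to sacCer3 with TopHat2 2.1.0 and counted uniquely mapping reads with featureCounts 1.5.1 on the Ensembl R64-1-1 annotation, without normalization. Whether the counting used strand is not given in the sources used here. The processing notes also name DESeq2 1.14.1. Total counts were 10212777 to 19503694 per library (median 14662715), and replicates differed by more than counting error (chi-square per degree of freedom 2.10 to 38.5), so the spread between replicates set the precision.

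Gene IDs were matched to RefSeq by locus tag (6025) or symbol (31), and 690 were not matched. The filterByExpr function, at a minimum count of 10, left 6209 genes for testing and removed 537, and libraries were scaled by TMM (factors 0.819 to 1.32). An edgeR 4.0.16 quasi-likelihood model in R 4.3.3 took in all 27 libraries and gave each of the 9 groups its own mean. For responses the glmTreat threshold was a log2 change of 1; other differences were set against 0 by glmQLFTest, with Benjamini-Hochberg adjusted p under 0.05 over all genes tested. Log2 ratios of copy A to copy B (0.5 added to each count) were tested with limma 3.58.1 over 61 pairs. CPM values are TMM-scaled. Errors of fold changes are SE and of levels SD.

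Named genes were, for each comparison, the 3 members with the highest and the 3 with the lowest estimate, the 4 pairs with the largest ratio change, the 5 highest levels per length, the stalk genes, the single-copy genes, and every listed regulator and chaperone. Others named were chosen after their values were seen, such as the pair RPL13 in the WT responses. The rule for the members uses gene names only, but the choice to describe this family, and the lists, were made with earlier results of these data known. Alternatives were other scalings, filters, DESeq2 1.42.0, a replicate block, a fit to the libraries of a comparison alone, a test against 0 and each library left out. On simulated data, 199 of 200 genes changed by a log2 of 2 were recovered for the WT osmostress response (0 of the unchanged called, of 6146 genes), and 192 of 200 changed by 1 for the H4-S47D interaction (6 unchanged called, of 6142 genes). The largest member estimate in that interaction was 0.87, so recovery of changes of the sizes seen in members was not measured.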

Additional observations from a re-analysis of the deposited data

Results flagged for a closer look

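The responses of 2 mutants differed from that of WT by the test of the difference itself. For H4-S47D upon osmostress, 34 member genes had a higher interaction estimate, beside 12.9% of all genes tested. The largest values were those of RPL33B (0.87), RPL3 (0.83) and RPL15A (0.83) on the log2 scale. For H4-T30D upon heat stress, 48 did, beside 4.4% of all genes, with the largest values for RPL3 (0.80), RPL12A (0.71) and RPL22B (0.67). All these genes fell less in the mutant than in WT, and their unstressed estimates in the same mutants were below WT. For RPL22B the unstressed difference did not pass (-0.17 ± 0.11, edgeR adjusted p = 0.219) and turned to 0.03 with library totals. The unstressed WT and mutant libraries enter both of these differences.

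The balance of paralogs moved differently from WT in 8 of 35 pairs in H4-S47D upon osmostress, a lower share than the 29.5% of all 61 pairs tested. The largest log2 changes of the A to B ratio were those of RPL33 (-0.64), RPL16 (0.57) and RPL27 (-0.33). In H4-T30D upon heat stress it moved differently in 1 pair, RPL13, which was the only call among the 61 pairs (1.64%). With 1 library left out, that count was between 0 and 4. Neither count was tested against the other pairs.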

How the results depend on the processing

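The counts of members called in the WT, H4-T30A and H4-T30D responses, in WT heat stress against osmostress and in unstressed H4-S47D and H4-T30D stayed within 1.5 times their value under every alternative run. The same held for the pairs in the WT responses and for the genes in the H4-T30A interaction. Library totals moved the median of all genes by 0.27 in WT osmostress, -0.33 in heat stress against osmostress, -0.18 in the H4-T30D heat response, 0.11 in unstressed H4-T30A and -0.12 in the H4-T30D interaction. Shares over all genes were taken from the main fit only, so the counts of members under other settings stand without them. The H4-S47D osmostress response had 14 genes with library totals and 79 tested against 0. Unstressed H4-T30A had 2 with DESeq2 and 0 to 3 when 1 library was left out, the H4-S47D interaction 55 with library totals and 22 to 48 with 1 library left out, and the H4-T30D interaction 30 to 66. Of the pairs, leaving out 1 library gave 3 to 7 in unstressed H4-S47D, 0 to 1 in unstressed H4-T30A, 0 to 6 in unstressed H4-T30D, 4 to 11 in the H4-S47D interaction, 0 to 1 in that of H4-T30A and 0 to 4 in that of H4-T30D. With only the libraries of the comparison, unstressed H4-T30D had 1 pair and its interaction 0. The replicate numbers do not pair the samples (over the 18 pairs of groups that enter a comparison together, same-number correlations were -0.40 to 0.15, and in 12 of 54 same-number pairs the sample correlated best with its own number; over all pairs of groups the highest was 0.28). With a replicate block, the gene counts were 65 and 79 for the WT responses, 33 for the H4-S47D interaction and 45 for that of H4-T30D, and the pair counts moved to 7 in unstressed H4-T30D and to 2 in its interaction.

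The median of the members in unstressed H4-T30A turned from -0.09 to 0.03 with library totals. Among the named genes, estimates near 0 changed sign, none of them past the threshold in either setting. With library totals these were RPL41B (0.25) in WT osmostress, RPL41B (0.25), RPL41A (0.15) and RPL15B (0.02) in H4-S47D osmostress, RPL41A (0.16) and RPL22B (0.03) in unstressed H4-T30D, RPL41B (0.00) in the H4-S47D interaction and RPL31B (-0.01) in that of H4-T30D. With DESeq2's size factors they were RPL41A (-0.02) in WT osmostress and RPL41B (0.03) in the H4-S47D interaction, where upper-quartile scaling gave 0.02 and TMM without ribosomal protein genes 0.04. With 1 library left out the ranges were -0.29 to 0.43 (RPL41A) and -0.35 to 0.27 (RPL41B) in WT osmostress, -0.41 to 0.10 and -0.30 to 0.29 in H4-S47D osmostress, -0.57 to 0.16 and -0.63 to 0.03 in unstressed H4-S47D, -0.01 to 0.22 (RPL24B), -0.04 to 0.09 (RPL31B) and -0.06 to 0.12 (RPL34A) in unstressed H4-T30A, -0.40 to 0.32 (RPL41A) in unstressed H4-T30D, -0.63 to 0.10 (RPL41A), -0.35 to 0.32 (RPL41B) and -0.15 to 0.02 (RPL16B) in the H4-S47D interaction, and -0.57 to 0.06 (RPL22B) and -0.22 to 0.08 (RPL31B) in that of H4-T30A. The cause was not tested. Uniquely mapping reads cover near-identical copies only in part, so the levels of RPL1, RPL4, RPL35 and RPL41 are too low. Any error in dividing reads between these copies was not measured.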
